A study of Mus musculus with 12 samples.

Results

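The 10 genes described here, Myl7, Sln, Myl4, Sbk2, Sbk3, Bmp10, Stard10, Dkk3, Kcnj3 and Nr2f2, are genes known for expression in the atria of the heart. They were taken by symbol from a table of 33641 gene symbols, and all 10 were among the 13158 genes that reached 1 TPM in at least 3 of 12 libraries. TPM, short for transcripts per 1000000, is the share of a library's RNA molecules that a gene holds, corrected for its length. The genes were chosen by their TPM in these same libraries, so their levels and changes are given as a description without a test.

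RNA came from myocardium of male wild-type C57BL/6 mice, about 16 weeks old, in 4 groups of 3 libraries. Hearts had either a sham operation or a myocardial infarction (MI), and mice then received vehicle or prednisone, a synthetic glucocorticoid. Prednisone was injected into the abdomen at 1 mg/kg once a week for 6 weeks, at lights-on, beginning 2 weeks after surgery. The heart tissue was collected 24 hours later than the final dose. All 4 groups shared the strain and the sex, and every mouse had been operated on. The labels name the tissue only as myocardium and do not say which chambers were dissected.

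Atrial and ventricular muscle cells make different versions of several proteins. Atrial cells carry their own regulatory and essential myosin light chains (Myl7 and Myl4), and sarcolipin (Sln) in place of much of the phospholamban that restrains the calcium pump SERCA in the ventricle. COUP-TFII (Nr2f2) is a transcription factor that helps set atrial identity, and Kcnj3 encodes GIRK1, a subunit of the channel through which acetylcholine slows the heart. Because RNA was taken from tissue, fewer atrial cells in a piece and less RNA per atrial cell cannot be told apart.

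The genes lie on 5 chromosomes of the mouse genome (GRCm38, GENCODE M21). Myl7 is at chr11:5896637-5898782 on the minus strand, and Myl4 is at chr11:104550663-104595753 on the plus strand of the same chromosome. Sln is at chr9:53850164-53854560 (plus), Bmp10 at chr6:87428994-87437677 (plus) and Kcnj3 at chr2:55435970-55598145 (plus). Chromosome 7 holds the other 5, which are Sbk2 at chr7:4940512-4964406 (minus), Sbk3 at chr7:4965260-4971168 (minus), Nr2f2 at chr7:70351944-70366735 (minus), Stard10 at chr7:101317086-101346626 (plus) and Dkk3 at chr7:112116017-112159057 (minus). Sbk2 and Sbk3 are neighbours on 1 strand, 853 bases apart.

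The RefSeq promoter table (GRCm38.p6) held 8 of the 10 genes, and in 5 of these the most abundant transcript started within 100 bases of the RefSeq start. The 250 bases before the start are shown for 4 of those 5, all but Kcnj3. In Sbk3 a shorter transcript of 1086 bases, with 11.8% to 35.0% of Sbk3 TPM, starts upstream at chr7:4971168, within the window shown. Myl7 is the most abundant of the 10 genes, Bmp10 is the one whose level followed it least closely among those with a shown window, and Sbk2 and Sbk3 are the neighbouring pair. The windows are chr11:5898783-5899032 (minus) for Myl7, chr7:4964407-4964656 (minus) for Sbk2, chr7:4970962-4971211 (minus) for Sbk3 and chr6:87428744-87428993 (plus) for Bmp10. They are written 5′ to 3′ on the gene's strand, and capitals mark the motif matches described after them.
Myl7: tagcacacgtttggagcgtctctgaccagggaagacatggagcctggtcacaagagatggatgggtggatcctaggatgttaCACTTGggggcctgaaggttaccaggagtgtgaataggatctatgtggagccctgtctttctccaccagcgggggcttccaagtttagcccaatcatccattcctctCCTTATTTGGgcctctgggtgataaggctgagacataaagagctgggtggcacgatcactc
Sbk2: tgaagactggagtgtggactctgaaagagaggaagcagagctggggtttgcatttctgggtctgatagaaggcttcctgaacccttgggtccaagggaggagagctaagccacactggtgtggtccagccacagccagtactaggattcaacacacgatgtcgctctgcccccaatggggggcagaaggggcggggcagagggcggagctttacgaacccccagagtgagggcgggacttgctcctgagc
Sbk3: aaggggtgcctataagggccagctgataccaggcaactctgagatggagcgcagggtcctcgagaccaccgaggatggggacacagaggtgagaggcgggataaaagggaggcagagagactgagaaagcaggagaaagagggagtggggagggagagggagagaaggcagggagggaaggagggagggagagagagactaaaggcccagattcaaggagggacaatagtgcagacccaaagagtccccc
Bmp10: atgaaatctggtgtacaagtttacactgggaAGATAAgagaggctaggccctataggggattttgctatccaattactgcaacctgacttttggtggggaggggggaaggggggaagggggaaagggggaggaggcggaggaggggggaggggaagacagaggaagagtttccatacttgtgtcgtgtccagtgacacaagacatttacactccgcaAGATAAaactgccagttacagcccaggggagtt
For this, 8 motifs were searched on both strands. The Myl7 window held a CArG box, the site of serum response factor, as CCTTATTTGG with its first base at position -61 from the start. Of 32851 promoter windows of the same length, 1.47% held a CArG box. It also held the NKX2 core CAAGTG on the opposite strand at position -168, which 11.6% of windows held. The Bmp10 window held the GATA motif AGATAA at positions -219 and -33, against 9.99% of windows with at least 1. None of the searched motifs, which also included the T-box motif AGGTGT, the nuclear receptor motif AGGTCA, the TATA box TATAAA, the MEF2 box and the glucocorticoid response element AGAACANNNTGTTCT, was found in the Sbk2 or Sbk3 window. The Kcnj3 window, which is not shown, held the T-box motif AGGTGT on the opposite strand at position -38, which 11.8% of windows held. A match is a description of letters and not evidence of a bound site.

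Between 11690 and 14307 genes reached 1 TPM per library, and mitochondrially encoded RNA took 21.6% to 42.0% of each library. MI vehicle replicate 3 had the most genes at 1 TPM. Summed TPM of 5 lung marker genes was 6608 in that library and 9557 in MI prednisone replicate 2, and ran from 0.0839 to 1436 in the other 10. Cardiac muscle markers were abundant throughout, with 8 markers summing to 14137 to 22167 TPM.

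The contractile members were the most abundant of the 10. Myl7, the regulatory light chain of atrial myosin, stood at 523, 619 and 195 TPM in the sham vehicle libraries and at 508, 526 and 661 TPM in the sham prednisone libraries. After infarction it stood at 409, 64.0 and 450 TPM with vehicle, and at 1036, 1015 and 793 TPM with prednisone. All 3 MI prednisone libraries lay above every other library, while sham vehicle replicate 3 and MI vehicle replicate 2 lay far below the others of their groups. The group means were 445 ± 222, 565 ± 83.3, 308 ± 212 and 948 ± 135 TPM (SD, n = 3 each, in the same order). On the log2(TPM + 1) scale, Myl7 was 2.04 ± 0.64 (SE) higher with prednisone than with vehicle in MI hearts.

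Myl4, the essential light chain of atrial myosin, varied with Myl7 across the libraries at lower levels. It stood at 403, 470 and 151 TPM in sham vehicle hearts, 386, 393 and 491 TPM in sham prednisone hearts, 298, 49.9 and 384 TPM in MI vehicle hearts and 768, 763 and 617 TPM in MI prednisone hearts. Again the MI prednisone group did not overlap any other group. Its log2 difference between prednisone and vehicle in MI hearts was 1.98 ± 0.64 (SE).

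Sln, the small membrane protein that inhibits SERCA in atrial muscle, was about as abundant as Stard10. It stood at 58.2, 65.0 and 20.8 TPM in sham vehicle hearts and at 59.2, 54.3 and 71.1 TPM in sham prednisone hearts. MI vehicle hearts had 44.9, 7.14 and 43.6 TPM, below the other groups except for sham vehicle replicate 3, and MI prednisone hearts had 118, 106 and 87.5 TPM. The difference between prednisone and vehicle in MI hearts was 2.03 ± 0.59 (SE) on the log2 scale.

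**Figure D1:**
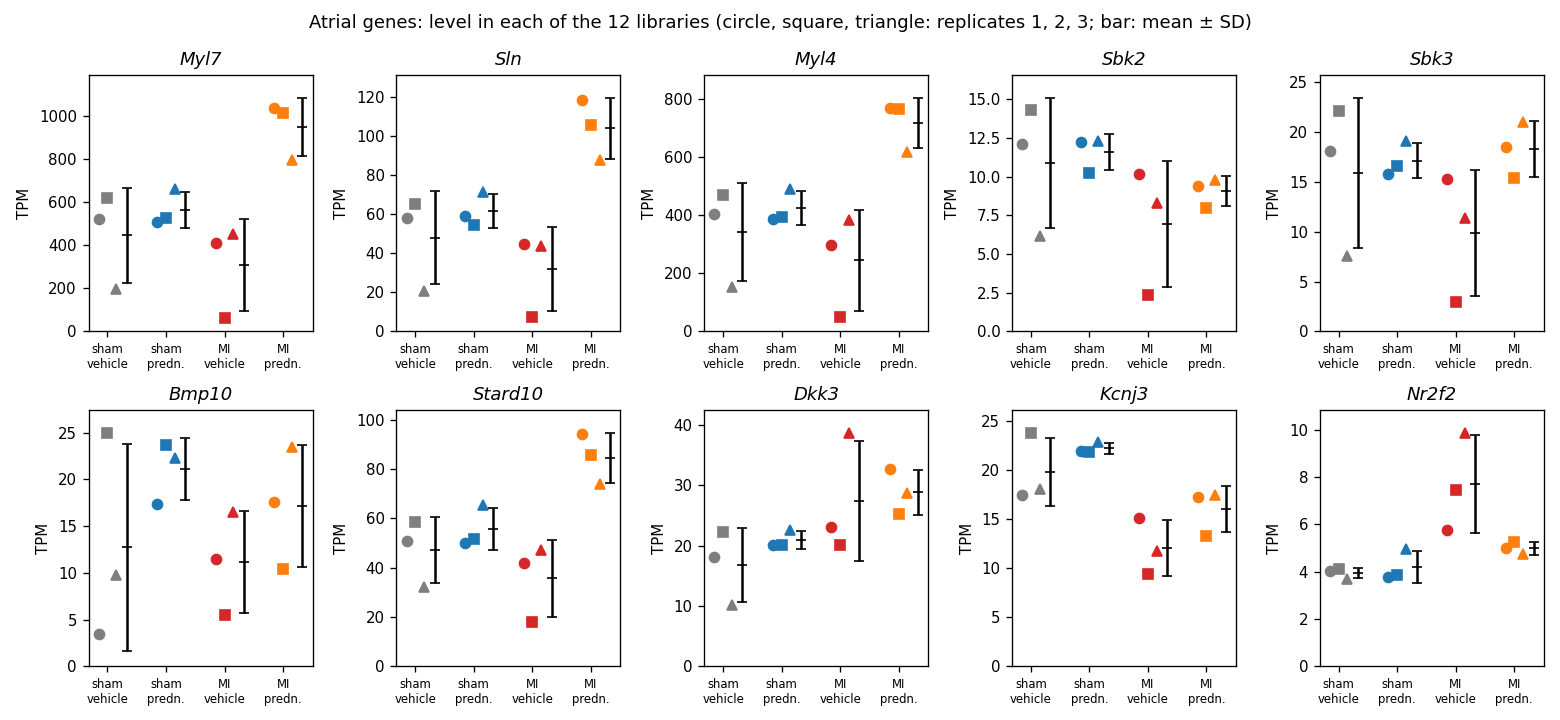
Level in TPM (vertical axes, from 0) of each of the 10 atrial genes in the 12 libraries, by group; each symbol is 1 library and the black bar is the mean ± SD of 3. For Myl7, the 3 MI prednisone libraries lie between 793 and 1036 TPM, and sham vehicle replicate 3 (195 TPM) and MI vehicle replicate 2 (64.0 TPM) lie lowest.

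These 3 genes kept nearly fixed proportions while their levels varied widely. Myl7 differed 16.2-fold between its lowest and highest library, Myl4 15.4-fold and Sln 16.6-fold. The ratio of Myl7 to Myl4, computed within each library, stayed between 1.17 and 1.37, and that of Myl7 to Sln between 8.58 and 10.3. The coefficients of variation of these ratios over the 12 libraries were 3.88% and 5.09%. Mybphl, a myosin-binding protein of atrial and conduction muscle that is not 1 of the 10, kept a ratio of Myl7 to Mybphl between 14.3 and 23.5.

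Stard10, a lipid transfer protein, moved with them over a narrower range. It stood at 50.9, 58.4 and 32.3 TPM in sham vehicle hearts, 49.8, 51.6 and 65.3 TPM in sham prednisone hearts, 41.9, 17.8 and 47.1 TPM in MI vehicle hearts and 94.0, 85.6 and 73.8 TPM in MI prednisone hearts. As a gene sum, all 3 MI prednisone libraries were above the other 9. The log2 difference between prednisone and vehicle in MI hearts was 1.33 ± 0.32 (SE). Its most abundant transcript alone (1400 bases) overlapped, at 52.3 to 61.0 TPM in MI prednisone hearts and 15.7 to 59.7 TPM elsewhere. A transcript of 1258 bases had 3.15 to 26.8 TPM and 0 to 7.55 TPM. On the most abundant transcript this log2 difference was 1.09. For MI against sham with prednisone it gave 0.16, where the gene sum gave 0.60.

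The kinase-related genes Sbk2 and Sbk3 were low in the same 2 libraries as Myl7, and neither had all 3 MI prednisone libraries above the other 9. Sbk2 stood at 12.1, 14.3 and 6.19 TPM in sham vehicle hearts, 12.3, 10.2 and 12.3 TPM in sham prednisone hearts, 10.2, 2.37 and 8.33 TPM in MI vehicle hearts and 9.42, 7.98 and 9.79 TPM in MI prednisone hearts. Sbk3 stood at 18.1, 22.1 and 7.54 TPM, 15.7, 16.5 and 19.1 TPM, 15.3, 2.97 and 11.4 TPM, and 18.5, 15.4 and 21.03 TPM in the same groups. For Sbk2 the 2 MI groups overlapped, whereas for Sbk3 every MI prednisone library lay above every MI vehicle library. The log2 differences between prednisone and vehicle in MI hearts were 0.51 ± 0.40 (SE) for Sbk2 and 1.05 ± 0.47 (SE) for Sbk3. The ratio of Sbk3 to Sbk2 was 1.93 to 2.15 in MI prednisone hearts and 1.22 to 1.62 in the other 9 libraries. The ratio of Myl7 to Sbk2 was likewise apart, at 81.0 to 127 in MI prednisone hearts against 27.0 to 54.1 elsewhere.

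**Figure D2:**
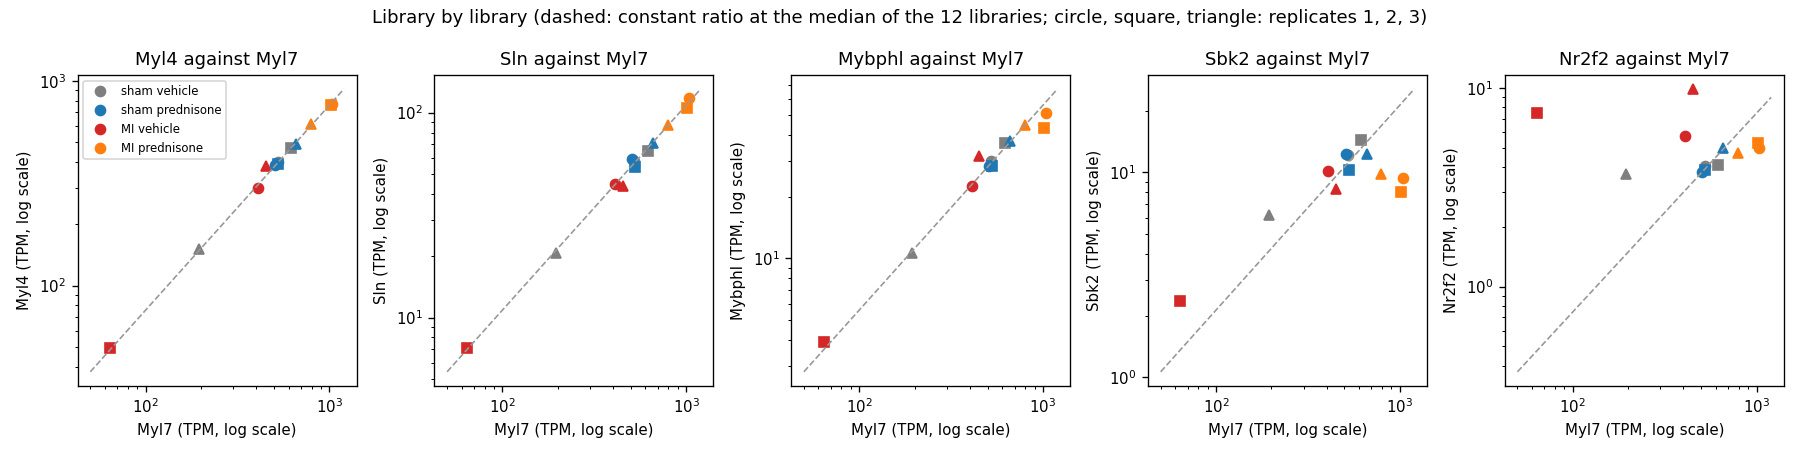
Level of 4 of the genes and of Mybphl against Myl7 in the 12 libraries (TPM, log scale on both axes), 1 symbol per library; the dashed line is a constant ratio at the median of the 12. Myl4, Sln and Mybphl lie along the line, Sbk2 falls below it in the MI prednisone libraries, where Myl7 to Sbk2 is 81.0 to 127, and Nr2f2 does not follow it.

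Unlike the contractile genes, neither of the secreted factors Bmp10 and Dkk3 had all 3 MI prednisone libraries above every other library. Bmp10, a BMP ligand made by atrial muscle, stood at 3.42, 25.0 and 9.82 TPM in sham vehicle hearts, a spread as wide as that of all 12 libraries. It stood at 17.4, 23.7 and 22.3 TPM in sham prednisone hearts, 11.5, 5.53 and 16.5 TPM in MI vehicle hearts and 17.6, 10.4 and 23.5 TPM in MI prednisone hearts. No pair of groups under comparison separated. The log2 differences between prednisone and vehicle were 0.62 ± 0.55 (SE) in MI hearts and 1.03 ± 0.55 (SE) in sham hearts. The lowest library for Bmp10, sham vehicle replicate 1, was not low in Myl7.

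Dkk3, a secreted protein of the Dickkopf family, stood at 18.1, 22.2 and 10.1 TPM in sham vehicle hearts, 20.1, 20.1 and 22.6 TPM in sham prednisone hearts, 23.2, 20.1 and 38.7 TPM in MI vehicle hearts and 32.7, 25.3 and 28.7 TPM in MI prednisone hearts. Within prednisone mice the MI libraries lay above the sham libraries. Between prednisone and vehicle in MI hearts the difference was 0.12 ± 0.27 (SE) on the log2 scale and the groups overlapped. The other 4 Dickkopf family genes on the list were all below the filter.

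Kcnj3, the GIRK1 channel subunit, stood at 17.5, 23.8 and 18.1 TPM in sham vehicle hearts and 22.0, 21.9 and 22.9 TPM in sham prednisone hearts. MI vehicle hearts had 15.1, 9.39 and 11.8 TPM and MI prednisone hearts 17.2, 13.3 and 17.4 TPM. In both treatments every MI library lay below every sham library. The log2 differences between MI and sham were -0.68 ± 0.18 (SE) with vehicle and -0.46 ± 0.18 (SE) with prednisone. A correction for transcript length, described further on, took these to -1.09 and -0.13.

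In the comparisons with MI vehicle hearts, Nr2f2 moved against most of the others. It stood at 4.04, 4.11 and 3.69 TPM in sham vehicle hearts, 3.75, 3.85 and 4.97 TPM in sham prednisone hearts, 5.75, 7.47 and 9.87 TPM in MI vehicle hearts and 4.98, 5.26 and 4.73 TPM in MI prednisone hearts. MI vehicle libraries were the highest 3 of the 12, and MI vehicle replicate 2, lowest in Myl7, was the second highest in Nr2f2. The difference between MI and sham with vehicle was 0.79 ± 0.17 (SE), and that between prednisone and vehicle in MI hearts was -0.51 ± 0.17 (SE), on the log2 scale. With the length correction these stood at 0.36 and -0.02. COUP-TFII is also made by venous endothelium and stromal cells.

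Counted over the 10 genes, MI against sham in vehicle mice had 1 gene above limma's threshold in the higher direction (Nr2f2) and 1 in the lower (Kcnj3), where 15.1% and 0.904% of all tested genes were. The threshold was a Benjamini-Hochberg adjusted p under 0.05. Without the 2 libraries low in Myl7 (sham vehicle replicate 3 and MI vehicle replicate 2) that count was 0 and 0. Of all 13158 genes, 14 were then called higher and 1 lower. With the length correction it was 0 higher and 1 lower, beside 314 higher and 317 lower of the 11902 genes with a length. Prednisone against vehicle in MI hearts had 4 higher (Myl7, Sln, Myl4 and Stard10) and 1 lower (Nr2f2), where 2.50% and 34.9% of all genes were. No member passed in MI against sham with prednisone, where 2.73% and 14.1% of genes were called higher and lower. Without the 2 low libraries 4 were above the threshold in the higher direction, beside 242 higher and 1341 lower of all 13158 genes. With the length correction 1 was, beside 584 higher and 950 lower of all genes with a length. None of the 10 passed in prednisone against vehicle in sham hearts, where 0.0532% and 0.0608% of all genes were called. For the difference of the prednisone effects, MI minus sham, 0 passed, beside 0.540% called higher and 20.7% lower. After the rescaling described next 1 passed in the higher direction, beside 566 higher and 579 lower of all genes. Without the 2 low libraries 3 did, beside 14 higher and 390 lower of all genes. These counts come from the comparisons that chose the genes and are given without a reading. MI against sham with prednisone and prednisone against vehicle in MI hearts share the MI prednisone libraries, and the comparisons with MI vehicle hearts share those.

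Groups did not overlap for 5 genes higher (Myl7, Sln, Myl4, Sbk3 and Stard10) and 1 lower (Nr2f2) with prednisone in MI hearts, where 3.59% and 42.6% of all genes did so. In MI against sham with prednisone, 5 were separate and higher (Myl7, Sln, Myl4, Stard10 and Dkk3) and 2 lower (Sbk2 and Kcnj3), where 12.9% and 32.2% of all genes were. With vehicle, 1 was separate and higher (Nr2f2) and 1 lower (Kcnj3), beside 40.8% and 4.17%. In sham hearts all 10 overlapped between treatments, beside 15.6% of genes separate and higher and 2.58% separate and lower.

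The median log2 difference of the 10 genes was -0.68 for MI against sham with vehicle, 0.33 for MI against sham with prednisone, 0.83 for prednisone in MI hearts and 0.32 for prednisone in sham hearts. Over all tested genes the same medians were 0.39, -0.06, -0.41 and 0.07. Because the general median was not at 0, values were also computed after median-ratio rescaling, which places it near 0. The medians of the 10 were then -1.08, 0.41, 1.26 and 0.24. With prednisone in MI hearts 6 were then above the threshold in the higher direction and 0 in the lower, beside 14.4% and 13.8% of all genes. Under that rescaling Myl7 was 2.50 higher with prednisone in MI hearts, Kcnj3 0.82 higher and Nr2f2 was at -0.11.

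**Figure D3:**
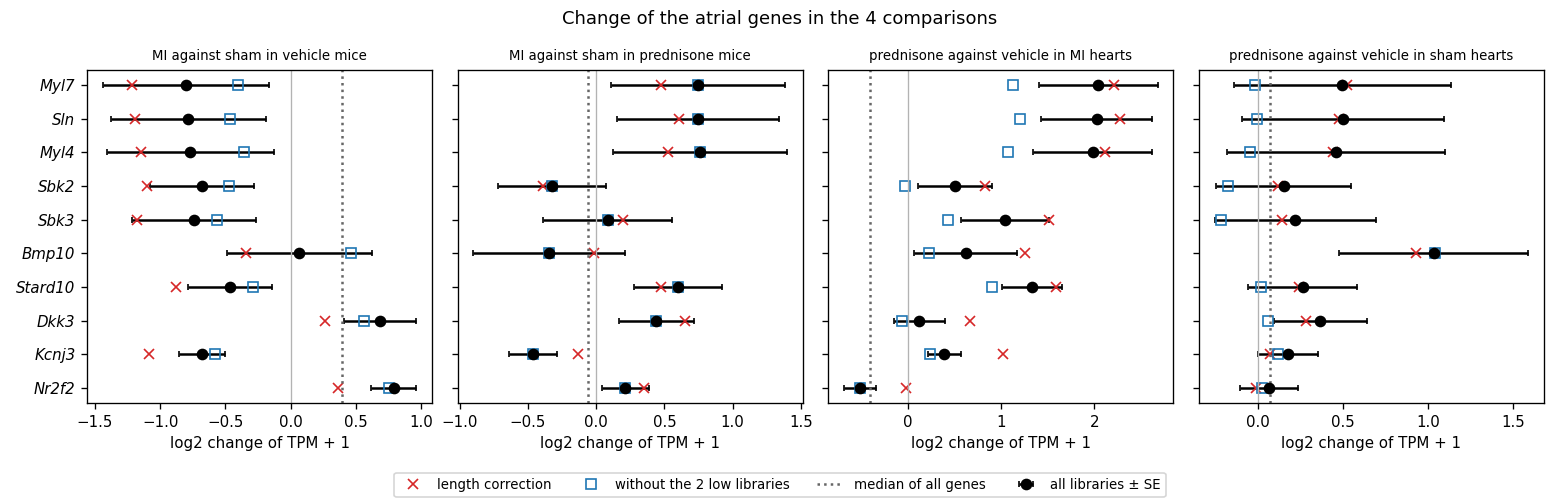
Log2 difference of TPM + 1 (horizontal axis) for the 10 genes in the 4 comparisons; black points are all 12 libraries ± SE, red crosses a transcript-length correction, blue squares the fit without the 2 libraries low in Myl7, and the dotted line the median of all tested genes. For prednisone in MI hearts Myl7 moves from 2.04 to 1.13 without those libraries and to 2.21 with the length correction.

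The size of these differences depended on 1 library. Without MI vehicle replicate 2, prednisone against vehicle in MI hearts went from 2.04 to 1.13 for Myl7, from 2.03 to 1.20 for Sln, from 1.98 to 1.07 for Myl4 and from 1.33 to 0.90 for Stard10. Leaving out sham vehicle replicate 3 as well, 4 were called higher and 0 lower, beside 1.63% and 29.7% of all genes. Sbk3 went from 1.05 to 0.43 and Sbk2 from 0.51 to -0.03. The lower levels after infarction with vehicle also depended on MI vehicle replicate 2. Without this library Myl7 was at 0.11, Sln at 0.04 and Myl4 at 0.14, against -0.80, -0.78 and -0.77 with all libraries. With both libraries low in Myl7 left out, Myl7, Sln and Myl4 were at -0.41, -0.47 and -0.36. Kcnj3 was at -0.52 without MI vehicle replicate 2 and at -0.58 without both.

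The 2 libraries lowest in Myl7 also had the lowest summed TPM of 4 adipocyte markers, 23.1 in sham vehicle replicate 3 and 26.3 in MI vehicle replicate 2, against 36.8 to 466 in the other 10. The part of this in the result was not tested. Of the libraries highest in Myl7, MI prednisone replicate 1 had 6.94 TPM of lung markers and replicate 2 had 9557, with Myl7 at 1036 and 1015. Without MI vehicle replicate 3 and MI prednisone replicate 2, the libraries with the most lung marker RNA, the Myl7 difference for prednisone in MI hearts was 2.48.

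Transcript length also went with the differences. Over all genes with a length, the median log2 difference for prednisone in MI hearts went from -0.05 in genes under 1000 bases to -0.69 in those of 8000 bases or more. Among the 10 genes, the most abundant transcripts of Myl7 (590 bases), Myl4 (900 bases), Sln (1318 bases) and Stard10 (1400 bases) were the shortest, and these 4 had the largest differences. After a correction for length in each library the values were 2.21 for Myl7, 2.11 for Myl4, 2.27 for Sln and 1.59 for Stard10. The same correction took Kcnj3 (5215 bases) from 0.39 to 1.02 and Bmp10 (4490 bases) from 0.62 to 1.26. Dkk3 went from 0.12 to 0.67 and Nr2f2 from -0.51 to -0.02.

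The transcripts of Kcnj3 were divided differently in the MI prednisone libraries. The longest Kcnj3 transcript (5215 bases) held 69.9% to 83.6% of Kcnj3 TPM in the other 9 libraries and 18.3% to 43.2% in MI prednisone hearts. A transcript of 4068 bases, which starts further downstream, held 3.78% to 14.01% in the other 9 and 56.8% to 81.7% in MI prednisone hearts. The remaining one, of 1679 bases, was listed at 0 in all 3 MI prednisone libraries and at 0.43 to 5.23 TPM elsewhere. The most abundant Kcnj3 transcript alone therefore gave -0.98 for prednisone in MI hearts, where the gene sum gave 0.39.

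In Myl4 the shares of the gene overlapped between MI prednisone hearts and the rest only through MI vehicle replicate 2, where Myl4 was lowest (49.9 TPM). A transcript of 677 bases, annotated as a retained intron, had 47.0 to 142 TPM in MI prednisone hearts and 0 to 15.3 TPM in the other 9 libraries, where the gene itself was lower. As a share of Myl4 it held 7.62% to 18.5% in MI prednisone hearts and 0% to 14.6% elsewhere. Apart from MI vehicle replicate 2, the range elsewhere was 0% to 3.99%. The main protein-coding transcript of 900 bases held 80.1% to 91.4% of the gene in MI prednisone hearts and 81.6% to 98.8% elsewhere. Apart from MI vehicle replicate 2, the latter range was 94.3% to 98.8%. On its own this transcript differed by 1.85 between prednisone and vehicle in MI hearts. TPM of transcripts that share most of their sequence are estimates, and these transcripts were chosen after their values were seen.

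**Figure D4:**
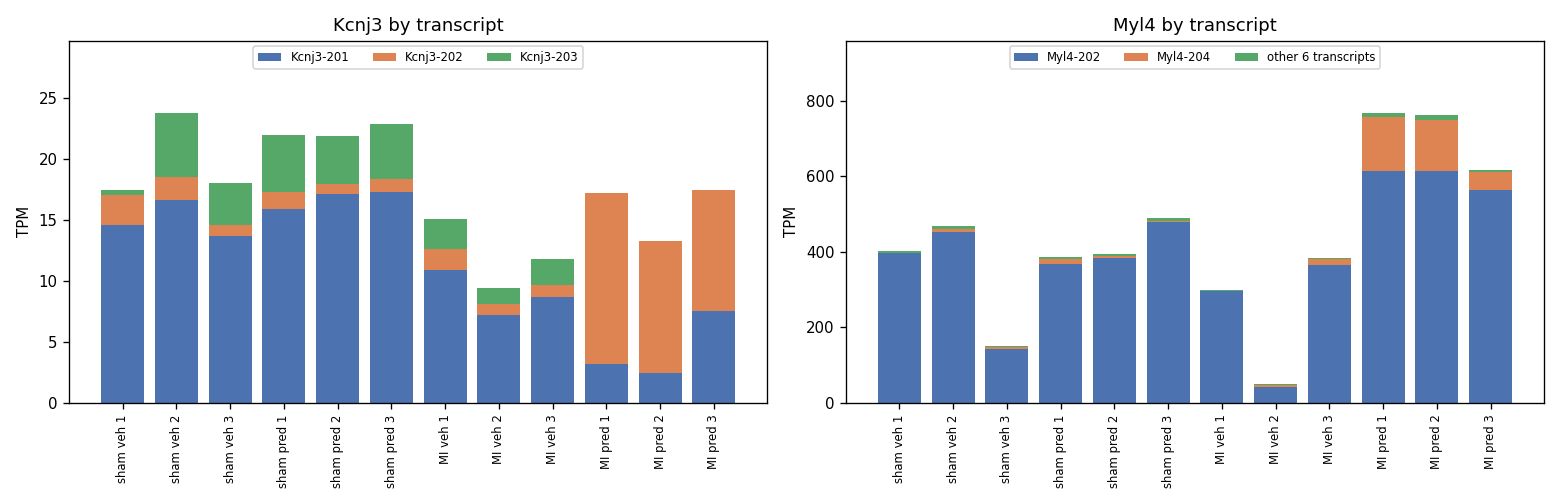
TPM of the transcripts of Kcnj3 (left) and Myl4 (right) in the 12 libraries, stacked so that each bar (vertical axis from 0) is the gene's sum. In the 3 MI prednisone libraries the 4068-base transcript (orange) makes up 56.8% to 81.7% of Kcnj3, and the retained-intron transcript of Myl4 (orange) reaches 47.0 to 142 TPM.

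Genes outside the 10 whose level followed Myl7 most closely were ranked by Pearson r of log2(TPM + 1) over the 12 libraries, among the 8115 whose mean reached 5 TPM. The libraries share their groups, so r is a description. Mybphl had r = 0.99 and was the third, after Myl4 and Sln, and Stard10 and Sbk3 were the fourth and the fifth. The next were Gm9803 (0.90), Hamp (0.89), Rdm1 (0.86), Eef1akmt1 (0.84), Cox20 (0.81), Srpk3 (0.81), Pank4 (0.80), Mrps35 (0.80) and Ppbp (0.80). Of the 10 genes, Kcnj3 and Bmp10 had r = 0.51, Dkk3 0.48 and Nr2f2 -0.29.

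Within groups, using deviations from group means, Mybphl again led the genes outside the 10 at 0.99. It was followed by Aldh1a2 (0.97), an enzyme of retinoic acid synthesis in epicardium, and by Cfd (0.97), Car3 (0.97), Cyp2e1 (0.96), Adipoq (0.96) and Cidec (0.96), genes of fat tissue. The remaining 3 were the immunoglobulin genes Ighv1-76, Igkv9-120 and Igkv12-89, each at 0.96. These 3 were low, at 0 to 3.46 TPM in the prednisone libraries. They were at 0 TPM in sham vehicle replicate 3 and 0 to 0.30 TPM in MI vehicle replicate 2. How far the r of the fat and immunoglobulin genes rests on these 2 libraries was not tested. Of the 10 genes, Myl4, Sln and Stard10 had within-group r with Myl7 of 0.998, 0.996 and 0.99, and Sbk2 and Sbk3 of 0.95 and 0.94. Dkk3 had 0.75, Kcnj3 0.62, Bmp10 0.40 and Nr2f2 0.20. Adipoq, the fat cell hormone adiponectin, stood at 2.09 TPM in sham vehicle replicate 3 and 1.68 TPM in MI vehicle replicate 2, and at 13.5 to 177 TPM in the other 10 libraries.

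Other genes known for atrial expression were read from a list of 16, of which 14 passed the filter. In prednisone against vehicle in MI hearts, 0 rose and 2 fell, by limma with Benjamini-Hochberg adjustment, beside 2.50% and 34.9% of all tested genes. After median-ratio rescaling 2 rose and 0 fell, beside 14.4% and 13.8% of all genes. After the length correction 3 rose and 0 fell, beside 1043 and 915 of all genes with a length. Chrm2, the muscarinic receptor that opens the GIRK channel, fell by 0.67 (adjusted p = 0.030), but stood at 0.01 after the length correction. Angpt1, an angiopoietin, fell by 0.69 (adjusted p = 0.025). Mybphl was 1.60 ± 0.61 (SE) higher and did not pass (adjusted p = 0.057), at 22.6, 3.90 and 31.5 TPM with vehicle and 51.2, 43.3 and 44.6 TPM with prednisone.

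After infarction, Nppa, the atrial natriuretic peptide that ventricular muscle also makes under load, rose in both treatments. Its level was 904 ± 428 TPM in sham vehicle hearts, 1198 ± 233 TPM in sham prednisone hearts, 2706 ± 600 TPM in MI vehicle hearts and 3319 ± 807 TPM in MI prednisone hearts (SD, n = 3). Without the 2 libraries low in Myl7 the call with vehicle was lost, at a log2 difference of 1.23. The log2 changes by limma over all libraries were 1.68 (adjusted p = 0.014) with vehicle and 1.46 (adjusted p = 0.012) with prednisone. The ratio of Myl7 to Nppa was 0.408 to 0.580 in sham vehicle hearts, 0.0225 to 0.199 in MI vehicle hearts and 0.244 to 0.354 in MI prednisone hearts.

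Nr2f1, the relative of Nr2f2, rose by 0.61 after infarction with vehicle (adjusted p = 0.048, limma), with 2 of the 14 genes rising and 0 falling in that comparison, beside 15.1% and 0.904% of all genes. After median-ratio rescaling that split was 1 rising and 3 falling, and without the 2 libraries low in Myl7 it was 0 and 0. Over all genes it was 427 and 428 in the former and 14 and 1 in the latter. With prednisone, 1 rose and 4 fell after infarction, beside 2.73% and 14.1% of all genes. Those that fell were Kcnj5, the partner subunit of Kcnj3 (-0.91, adjusted p = 0.011), Chrm2 (-1.04, adjusted p = 0.0076), Tbx5, a T-box factor (-0.59, adjusted p = 0.047), and Kcnk3, a background potassium channel (-0.61, adjusted p = 0.0042). With the length correction 1 rose and 0 fell, beside 584 and 950 of all genes with a length. In prednisone against vehicle in sham hearts, none of the 14 passed. Gja5, Kcna5 and Pam passed in none of the 4 comparisons.

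The partners of the 10 genes were read from further lists. Of 11 tested genes of BMP10 signalling, 5 rose after infarction with vehicle, and with prednisone in MI hearts 5 fell and 0 rose. Over all tested genes 15.1% rose in the former comparison, and 34.9% fell and 2.50% rose in the latter. The 5 that rose became 2 after median-ratio rescaling, 2 after the length correction and 0 without the 2 libraries low in Myl7, and the 5 that fell became 2, 0 and 3 under the same settings. Over all genes, those that rose numbered 427, 314 and 14 under these settings, and those that fell 1812, 915 and 3906. With prednisone in MI hearts Bmpr2, a type II receptor for BMP ligands, fell by 1.01 (limma, adjusted p = 0.00158). The target Id1 was the only 1 of the 11 with a positive difference, at 0.15, and did not pass (adjusted p = 0.45). Smad7 fell by 0.81 (limma, adjusted p = 0.028). Id2, Smad6 and Id3 stood at -0.71, -0.54 and -0.40 and did not pass. Of 9 tested genes of the GIRK list, 3 rose after infarction with vehicle and 4 fell with prednisone in MI hearts, beside the same 15.1% and 34.9% of all genes. The 3 that rose became 2 after median-ratio rescaling, 1 after the length correction and 0 without the 2 libraries low in Myl7, and the 4 that fell became 2, 2 and 4. Among the 4 were the G protein subunits Gnai3 (-1.14, adjusted p = 0.00614) and Gnb1 (-0.98, adjusted p = 0.00467).

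Of 3 tested genes around SERCA, Atp2a2, the pump itself, fell by 0.59 with prednisone in MI hearts (limma, adjusted p = 0.033), and stood at 0.01 after the length correction. Pln, phospholamban, differed by -0.37 and did not pass (adjusted p = 0.10). The ratio of Pln to Sln, whose products act on the same pump, was 12.4 to 23.4 in MI prednisone hearts and 37.7 to 320 in the other 9 libraries.

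The ventricular light chains, which replace Myl7 and Myl4 in ventricular muscle, were higher with prednisone after infarction. With prednisone in MI hearts Myl2 rose by 0.59 (limma, adjusted p = 0.0062) and Myl3 by 0.33 (adjusted p = 0.041). Of 11 tested ventricular genes, 2 rose and 1 fell, beside 2.50% and 34.9% of all tested genes. The 1 that fell was the transcription factor Irx5 (-0.52, limma, adjusted p = 0.036). After the length correction 0 of the 11 passed in either direction. The ratio of Myl2 to Myl7 was 13.4 to 15.7 in MI prednisone hearts and 17.4 to 152 in the other 9 libraries. Of 8 general muscle cell genes, 2 rose and 0 fell with prednisone in MI hearts, beside the same 2.50% and 34.9% of all genes. These were Tnni3, higher by 0.73 (limma, adjusted p = 0.00307), and Tnnt2, higher by 0.39 (adjusted p = 0.028).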

How the data were processed

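The authors deposited 1 table of TPM for 105129 transcripts, each column summing to 1000000. Per the submitters' processing notes, Trimmomatic, HISAT2, kallisto and mm10 were used; their roles and versions are not given in the sources used here. TPM keeps no depth, so neither counting errors nor floors can be attached, and precision rests on 3 libraries per group. Total RNA was made into stranded mRNA libraries, per the labels' protocols. Groups and replicate numbers were taken from the sample titles.

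Transcripts were added up per symbol. A filter of 1 TPM, reached in 3 or more of the 12 libraries, was applied, and limma 3.58.1 (R 4.3.3, eBayes with trend) was run on log2(TPM + 1) with 4 group means. A gene was called at a Benjamini-Hochberg adjusted p under 0.05 over all 13158 genes. Changes on this scale understate those of low genes. The script was tested on simulated data. Positions and lengths came from GENCODE M21, which held 94.7% of the identifiers (97.8% of these with the same symbol). Lengths were at hand for 90.5% of tested genes.

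The 10 genes and all lists were chosen with earlier results of these data known. The naming rule took the 10 genes, and the called genes of the atrial list with Gja5, Kcnj5, Kcna5, Mybphl and Pam. From each further list it took the 3 genes of highest mean TPM, and up to 4 called with prednisone in MI hearts, by size of change. It also took the 10 genes most like Myl7 by each measure. Genes of the conduction, epicardial, endothelial, smooth muscle, neuronal, skeletal muscle, lung, adipocyte and fibroblast lists are named only where a result turns on them. With prednisone in MI hearts, where 2.50% and 34.9% of all tested genes were called higher and lower, such genes numbered 1 and 3 of 9 conduction, 0 and 6 of 10 epicardial, 0 and 4 of 6 endothelial, 0 and 2 of 4 smooth muscle, 0 and 0 of 2 neuronal, 1 and 0 of 4 skeletal muscle, 0 and 0 of 5 lung, 0 and 0 of 4 adipocyte and 0 and 3 of 4 fibroblast genes, and 0 and 1 of 4 relatives of Sbk2, Stard10 and Nr2f2. With the length correction 0 and 1 epicardial, 2 and 0 endothelial, 0 and 0 smooth muscle, 2 and 0 conduction, 0 and 0 skeletal muscle, 0 and 1 fibroblast genes and 1 and 0 relatives were called. Over all genes with a length, 1043 and 915 were.

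Alternatives were median-ratio rescaling, no filter, no trend, a pseudocount of 0.1, single transcripts, a replicate block, only the 2 groups compared, each library left out, mitochondrial, copy and globin rows removed (31 genes), and a loess correction for transcript length (span 0.5) with and without the block. Leaving out the 2 libraries low in Myl7, and the 2 with the most lung marker RNA, was added after the data were seen. The replicate numbers belong to different mice, and same-numbered libraries did not deviate together (mean r of deviations from -0.373 to 0.003 over the 4 comparisons).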

Additional observations from a re-analysis of the deposited data

Results flagged for a closer look

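Among the list genes chosen by the naming rule, the prednisone effect in MI hearts differed from that in sham hearts for 18, by limma's interaction term with Benjamini-Hochberg adjustment. The rule took part of the list genes by their call with prednisone in MI hearts, which is 1 part of this interaction. In that contrast 2.50% of all tested genes were called higher and 34.9% lower, so the directions below are a description. Each value is the log2 effect in MI hearts minus that in sham hearts. The effect was lower in MI than in sham hearts for 17 of these 18 and higher for Tnni3, cardiac troponin I (0.67). Over all tested genes 0.540% were called higher and 20.7% lower in this comparison, whose median over all genes was -0.48. The lists held 4 further genes that passed, Kdr (-0.59), Wt1 (-1.44), Acvr2a (-0.97) and Pvalb (1.09), so that 22 list genes were called in all, 2 higher and 20 lower. After the length correction limma called 0 of the 102 list genes with a length (20 had an unadjusted p under 0.05), after median-ratio rescaling 2 higher and 3 lower, and without the 2 libraries low in Myl7 0 higher and 4 lower.

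Among genes linked to the 10, the BMP receptor Bmpr2 differed by -1.17, and the signal carriers Smad1 by -0.85 and Smad5 by -0.71. The G protein subunits Gnb1 and Gnai3 differed by -1.05 and -1.25, and the light chain Myl12a by -0.48. The conduction system factor Etv1 differed by -1.22.

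Among genes of other cell types, the mesothelial genes Upk3b, Msln and Upk1b differed by -1.82, -1.66 and -2.01, and the endothelial or endocardial genes Pecam1, Cdh5, Npr3 and Ephb4 by -0.88, -0.91, -1.06 and -0.59. The fibroblast genes Dcn, Col1a1 and Pdgfra differed by -1.28, -1.73 and -1.0. With the length correction Smad5 stood at 0.10 and Ephb4 at 0.13.

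Of the 10 atrial genes, Sln and Stard10 had MI libraries all below the sham mean with vehicle and all above it with prednisone. For Stard10, MI vehicle replicate 3 was at 47.1 TPM against a sham mean of 47.2 TPM. In Myl7 and Myl4 that library lay above the sham mean with vehicle (450 against 445 TPM and 384 against 341 TPM). The MI effect under prednisone minus that under vehicle is the same interaction. On the log2 scale it was 1.53 ± 0.84 (SE) for Sln and 1.07 ± 0.45 (SE) for Stard10, and neither passed. Myl7 and Myl4 were alike, at 1.55 ± 0.90 (SE) and 1.53 ± 0.90 (SE), and did not pass. Without MI vehicle replicate 2 the interaction was 0.70 for Sln and 0.64 for Stard10, and the MI effect with vehicle was 0.04 for Sln and -0.04 for Stard10. With both libraries low in Myl7 left out, the interaction was 1.21 for Sln and 0.89 for Stard10. The MI effect with vehicle was then -0.47 for Sln and -0.29 for Stard10. On the most abundant Stard10 transcript alone, over all libraries, the interaction was 0.57.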

How the results depend on the processing

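Counts of called genes depended on the settings. MI against sham with vehicle called 2100 genes, and 855 after median-ratio rescaling (427 higher, 428 lower, against 1981 and 119), 1068 without the filter, 789 on transcripts, 2 with only the 2 groups, 631 with the length correction, 15 without the 2 libraries low in Myl7 and 1022 without the 2 with the most lung marker RNA. MI against sham with prednisone called 2213, and 3332 after rescaling, 6204 on transcripts and 3648 with mitochondrial, copy and globin rows removed. Prednisone in MI hearts called 4917, and 9169 on transcripts, 808 with only the 2 groups and 1958 with the length correction (1043 higher, 915 lower, against 329 and 4588). Prednisone in sham hearts called 15, and 5 without the 2 low libraries. The difference of the prednisone effects called 2797, and 1145 after rescaling, 5185 on transcripts, 243 with the length correction and 404 without the 2 low libraries.

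With a replicate block, in the same order of comparisons, 1056 genes were called for MI against sham with vehicle and 7 for prednisone in sham hearts. With the block and the length correction the counts were 70, 940, 1365, 6 and 110. The replicate numbers belong to different mice.

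Leaving out each library in turn gave 120 to 5631 genes for MI against sham with vehicle, 1027 to 3971 with prednisone, 3245 to 6274 for prednisone in MI hearts, 4 to 18 in sham hearts and 1111 to 4520 for the difference. The median of the 10 atrial genes ran from -0.93 to 0.0746, from 0.28 to 0.41, from 0.33 to 1.15, from 0.0044 to 0.55 and from 0.14 to 0.97 in the same order. The value of 0.0746 was that without MI vehicle replicate 2, and without both libraries low in Myl7 the median was -0.38.

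Signs turned as follows, and the cause was not tested. After rescaling, Myl12a stood at -0.0452 (MI against sham with vehicle), 0.0875 (prednisone in MI hearts) and 0.0704 (difference), and Smoc2 at 0.0029 and Stard7 at 0.0758 for prednisone in MI hearts. On the most abundant transcript, Pam, Vwf and Pank4 stood at -0.63, -1.67 and -0.79 in MI against sham with prednisone, Vwf, Rdm1 and Pank4 at -2.30, -0.053 and -0.52 for prednisone in MI hearts, and Vwf and Pank4 at -2.64 and -0.86 for the difference. With the length correction, with or without the block, prednisone in MI hearts gave 0.010 for Chrm2, 0.0433 for Smoc2, 0.0146 for Irx3, 0.0687 for Smad5, 0.0144 for Atp2a2, 0.13 for Stard7 and 0.17 for Ephb4, and the difference gave 0.10 for Smad5 and 0.13 for Ephb4. Without the 2 low libraries Adipoq stood at -1.49 and Cidec at -1.79 for prednisone in MI hearts. TPM gives no depth, so what depth limits cannot be stated.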
